A study of Mus musculus with 12 samples.

Results

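Every colon exposed to dextran sodium sulfate (DSS) was compared with the untreated colon, without regard to the drug that some of the mice also received. The DSS-exposed group held 9 libraries, 3 each from the model, Rhy and DXM groups, out of 12 in all, and the other 3 came from control mice. RNA-Seq measured gene expression in colonic tissue. Whether each library came from a separate mouse is uncertain for model 1 and model 2, as described below. All mice were male, wild-type C57BL/6J animals, aged 5 weeks when the work began. Control mice received no DSS. The model group received DSS alone, the Rhy group DSS with rhynchophylline (Rhy), an alkaloid under test as a treatment, and the DXM group DSS with dexamethasone (DXM), a glucocorticoid that suppresses inflammation. In the acute colitis experiment the mice drank 3% DSS, and DXM was dosed at 4 mg/kg. Rhy was dosed at 2, 4 or 8 mg/kg, and which dose the sequenced mice received is not given in the sources used here. No group received a drug without DSS. The comparison asks which genes differ between colons with and without DSS whatever the treatment, so the genes of interest are those with the same direction in all 3 DSS groups.

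DSS is a sulfated polymer that injures the lining of the colon when mice drink it. The lining is a single layer of epithelial cells, renewed from dividing cells at the base of the crypts. Daughter cells leave the cell cycle as they move up and become absorptive colonocytes, with a brush border of microvilli, or mucus-secreting goblet cells. Tight junctions seal the gaps between the cells. Acute DSS colitis is known for loss of epithelium, infiltration by neutrophils and macrophages, and regrowth of the crypts.

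The libraries held 14346478 to 17749716 counts each, and 16904 of 54532 genes had enough counts to be tested. Levels are given in CPM (counts per 1000000 counts), scaled between libraries but not by gene length. Colon epithelium was present in every library, with the epithelial surface marker Epcam at 1140 to 2210 CPM and the intestinal transcription factor Cdx2 at 56.5 to 535 CPM. The following features of the libraries bear on the values below. Hoxb13, a homeobox gene of the distal colon, was under 5 CPM in control 3, model 3 and Rhy 1 and at 72 to 316 CPM in the other libraries. Mitochondrially encoded genes took 6.33% to 21% of control counts and 7.48% to 25.7% of DSS counts, with the highest shares in Rhy 1 (23.8%) and DXM 1 (25.7%). Libraries model 1 and model 2 differed far less than any other pair, with a dispersion (variance beyond counting noise) of 0.00201 against 0.0604 to 0.351, so the model group may hold fewer than 3 independent samples. The pooled count, the count among DSS groups, the same-direction count and part of the list counts were recomputed with that pair as 1 library. Those that moved by over 1.5 times are given beside the result. Counts for each group alone, for libraries that did not overlap and for the other lists were not recomputed.

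No single gene passed the test of DSS-exposed against control at an adjusted p under 0.05 (edgeR's quasi-likelihood test, Benjamini-Hochberg adjustment over all genes tested). The smallest adjusted p was 0.137, and 617 genes had one under 0.15. At an unadjusted p under 0.05 there were 2882 genes, 17% of those tested, of which 1328 (7.86%) were higher with DSS and 1554 (9.19%) lower. DESeq2, run on the same counts, called 854 genes at an adjusted p under 0.05, 308 higher and 546 lower. The unadjusted count depended on single libraries, both control and DSS. It was 1775 without control 2, 3704 without control 3 and 3693 without Rhy 1. Genes below are therefore described as higher or lower, with their values, and none as changed.

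The log2 fold change against control had the same sign in all 3 DSS groups for 10425 genes, 61.7% of those tested. Of these, 5269 (31.2%) were higher and 5156 (30.5%) lower in every group, with median log2 fold changes of 0.44 and -0.45. The 3 comparisons share the control libraries, so a control mouse that stood apart would move all of them together. Adding an unadjusted p under 0.05 in the pooled test left 1318 higher genes (7.8%) and 1545 lower genes (9.14%). All 9 DSS libraries lay above all 3 control libraries for 329 genes (1.95%) and below all of them for 225 genes (1.33%), together 3.28% of those tested. Against control, each group alone had no gene at an adjusted p under 0.05 by edgeR, with smallest adjusted p-values of 0.459 for model, 0.364 for Rhy and 0.0971 for DXM. At an unadjusted p under 0.05 there were 863 higher (5.11%) and 763 lower genes (4.51%) in model, together 9.62%. Rhy had 1092 higher (6.46%) and 861 lower genes (5.09%), together 11.6%, and DXM had 1467 higher (8.68%) and 1722 lower genes (10.2%), together 18.9%.

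Among the genes with the same direction in all 3 groups, the smallest p belonged to Dennd1b, which encodes an exchange factor for Rab GTPases in membrane traffic (mm10, chromosome 1, 138963435 to 139178960). Its levels were 54.7, 71.6 and 50.6 CPM in the control libraries. With DSS they were 29.4, 29.2 and 29.3 CPM in model, 37.5, 29.4 and 28.4 CPM in Rhy and 31.7, 28.4 and 25 CPM in DXM. No DSS library reached the lowest control. The log2 fold change was -0.99 ± 0.14 (SE), a level 1.98-fold lower, with an adjusted p of 0.137 by edgeR. By group it was -1.01 for model, -0.89 for Rhy and -1.06 for DXM.

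Hsd17b13, an enzyme of lipid droplets (chromosome 5, 103955440 to 103977410), was also lower in all 9 libraries but not to the same degree. Its control levels were 114, 173 and 218 CPM. The DSS levels were 66.8, 64.8 and 65.7 CPM in model and 100, 35.9 and 54.6 CPM in Rhy, and in DXM they were 11, 25.6 and 12.1 CPM. The DXM libraries lay below every other library. The log2 fold change was -3.37 in DXM against -1.36 in model and -1.41 in Rhy, and the test among the 3 DSS groups gave an unadjusted p of 0.000844 (adjusted p = 0.852, edgeR).

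The immunoglobulin-superfamily gene Igsf9 (chromosome 1, 172481788 to 172498878) was at 162, 165 and 125 CPM in control and at 23.3 to 104 CPM with DSS, with a median of 53.1 CPM over the 9 libraries. Its log2 fold change was -1.47 ± 0.24. Irak2, a kinase that relays signals from interleukin-1 and Toll-like receptors, had control levels of 87.2, 73.7 and 44.1 CPM and DSS levels of 22.1 to 40.4 CPM. Both groups of libraries stayed apart for Irak2, with a log2 fold change of -1.16 ± 0.21. The same held for the other members of the 12 lower genes with the smallest p. Slc17a9, a vesicular ATP transporter, was at 125, 105 and 73.1 CPM in control and 37.9 to 72.5 CPM with DSS. The others included the ETS transcription factor Elf4 (-0.73), Arhgap18 (-0.62), Susd6 (-1.17), Ccdc120 (-1.01), Etl4 (-1.02) and Tmem127 (-0.67), all as log2 fold changes. Adjusted p-values of the 12 were 0.137 by edgeR.

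Of the 12 higher genes with the smallest p, Tubg1 came first. Tubg1, the gamma-tubulin that seeds microtubules (chromosome 11, 101119938 to 101126419), was at 15.8, 13.8 and 15.7 CPM in control. It was at 26.4, 25.1 and 28.5 CPM in model, 24.9, 27.2 and 25.8 CPM in Rhy and 21.4, 20.9 and 23.2 CPM in DXM. Every DSS library was above the highest control, and the log2 fold change was 0.71 ± 0.13. Vars, the synthetase that charges valine tRNA (chromosome 17, 35000987 to 35016322), was at 36.6, 37.5 and 41.4 CPM in control and at 51.8 to 78.7 CPM with DSS, a log2 fold change of 0.74 ± 0.14. Nme1, a nucleoside diphosphate kinase, had control levels of 20.3, 14.5 and 17.0 CPM and a wide DSS range. It was at 26.7 CPM in Rhy 1 and 29.0 CPM in DXM 1 and at 38.9 to 62.5 CPM in the other DSS libraries. Its log2 fold change was 1.41 ± 0.29.

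The rest of the 12 were the mitochondrial ribosomal protein gene Mrps28 (0.80), the histone acetyltransferase gene Kat2a (0.70), spermine synthase Sms (0.82), Ssna1 (0.73), the mitochondrial matrix protein gene C1qbp (0.88), the spliceosome core gene Snrpd3 (0.92), the alpha-tubulin gene Tuba1b (1.04), the ribosomal protein gene Rps21 (0.74) and the muscle gene Smpx (1.63). For all 12, every DSS library was above every control library, and edgeR's adjusted p was 0.137. Tuba1b and Rps21 have near-identical copies elsewhere in the genome, so reads may be shared and their values are less certain. Smpx ran from 2.42 to 3.55 CPM in control and from 3.69 to 12.9 CPM with DSS.

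**Figure D1:**
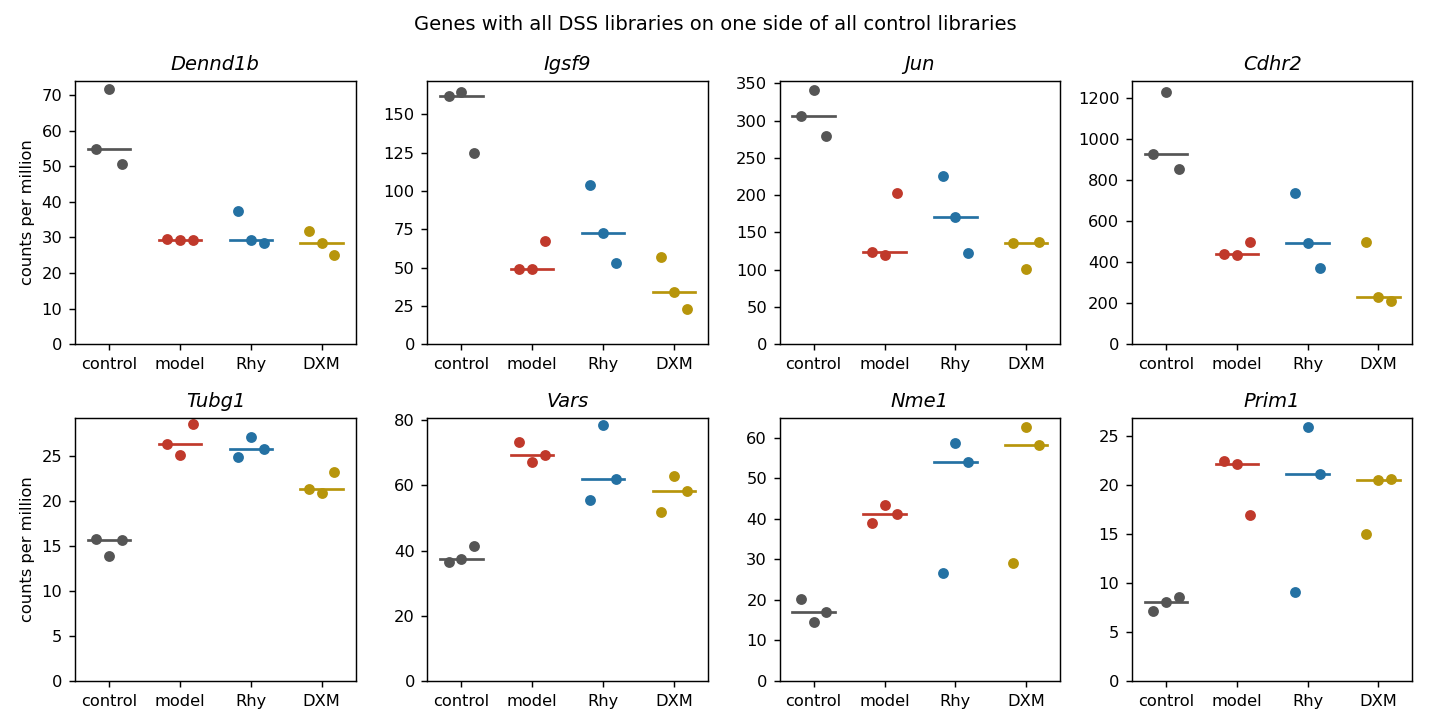
Expression in CPM (y axes, from 0) for 8 genes by group of mice (control, then model, Rhy, DXM); each point is 1 library and each line the group median. For Dennd1b, Igsf9, Jun and Cdhr2 all 9 DSS libraries lie below the 3 control libraries, and for Tubg1, Vars, Nme1 and Prim1 all 9 lie above them.

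The gene lists were chosen with earlier results of these data known, so their ranking is a description. Genes of DNA replication formed the list with the largest share of higher members. Replication begins when the MCM helicase is loaded at origins, primase lays down primers, and chromatin assembly factors package the new DNA. All 45 tested members had a log2 fold change above 0, with a median of 0.99 against 0.01 over all genes tested. Of all 16904 genes, 8587 were above 0 and 8316 below, which is the base for the sign counts of the lists that follow as well. Of the 45, 37 (82.2%) were higher at an unadjusted p under 0.05, where 7.86% of all genes were, and none was lower. The medians were 1.20 in model, 0.99 in Rhy and 0.87 in DXM. A log2 fold change above 0 in all 3 groups, which share the controls, was found for 44 members and for 31.2% of all genes. None of the 45 had an adjusted p under 0.05 by edgeR. By DESeq2 25 did, all higher, where 308 of all 16904 genes were higher at that threshold.

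Prim1, the catalytic subunit of primase, had the smallest p of the list (chromosome 10, 128015168 to 128030037). It was at 7.11, 8.07 and 8.56 CPM in control. In model it was at 22.5, 22.1 and 16.9 CPM, in Rhy at 9.07, 25.9 and 21.2 CPM and in DXM at 15.0, 20.5 and 20.6 CPM. All 9 DSS libraries were above the controls, Rhy 1 only just, and the log2 fold change was 1.29 ± 0.28 (adjusted p = 0.137, edgeR). Chaf1b, a subunit of chromatin assembly factor 1 (chromosome 16, 93883901 to 93906115), was at 5.84, 5.08 and 8.84 CPM in control and at 9.53 to 26.7 CPM with DSS, again with no overlap. Dut, the enzyme that keeps uracil out of DNA, was at 17.9, 18.1 and 25.8 CPM in control and at 24.3 to 55.8 CPM with DSS. Its only DSS libraries within the control range were Rhy 1 (25.4 CPM) and DXM 1 (24.3 CPM), and its log2 fold change was 1.09 ± 0.28.

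Summed over the 45 genes, the controls held 484, 615 and 883 CPM. Model libraries held 1448, 1443 and 1364 CPM, Rhy libraries 833, 1547 and 1512 CPM, and DXM libraries 789, 1444 and 1273 CPM. Thus 7 DSS libraries stood above every control, while Rhy 1 and DXM 1 lay within the control range. Those were also the 2 libraries with the highest mitochondrial share, and control 3, with the lowest share (6.33%), had the highest replication sum of the controls. With a term for the mitochondrial share in the fit, 40 of the 45 were higher at an unadjusted p under 0.05, as were 1772 of all 16904 genes. With only the 9 libraries that held Hoxb13 at 5 CPM or more (2 control and 7 DSS), the count was 38, against 1896 of all 17253 genes. Of the 45, 15 were higher at an adjusted p under 0.05 by edgeR there, against 117 of all genes. Leaving out 1 library at a time gave 29 to 39. The part of cell number against RNA per cell in these sums cannot be told apart in bulk tissue.

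Mitosis genes had a smaller share of higher members, and the difference between the lists was not tested. Of 50 members, 46 had a log2 fold change above 0, with a median of 0.45, and 5 (10%) were higher at an unadjusted p under 0.05, near the 7.86% of all genes. The median was 0.88 in model, 0.21 in Rhy and 0.27 in DXM. Summed CPM was 697, 493 and 861 in control and ran from 490 in DXM 1 to 1250 in DXM 2 with DSS. The groups overlapped, and the count of 5 rested on single libraries, being 18 without control 3 and 0 without control 1 or without control 2. It was 15 with a term for the mitochondrial share, a fit in which 1772 of all 16904 genes were higher. With only the libraries that held Hoxb13 at 5 CPM or more it was 25, where 1896 of 17253 genes were higher. Cdk1, the kinase that drives entry into mitosis, was at 14, 16.8 and 24.9 CPM in control, at 49.1, 50.5 and 38.1 CPM in model, and at 13.6 to 45.2 CPM in the drug groups, a log2 fold change of 0.90 ± 0.34. Mki67, the proliferation marker, was at 157, 58.3 and 87.4 CPM in control and 44.4 to 159 CPM with DSS, a log2 fold change of -0.05 ± 0.38 that turned positive without control 1 (0.42).

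**Figure D2:**
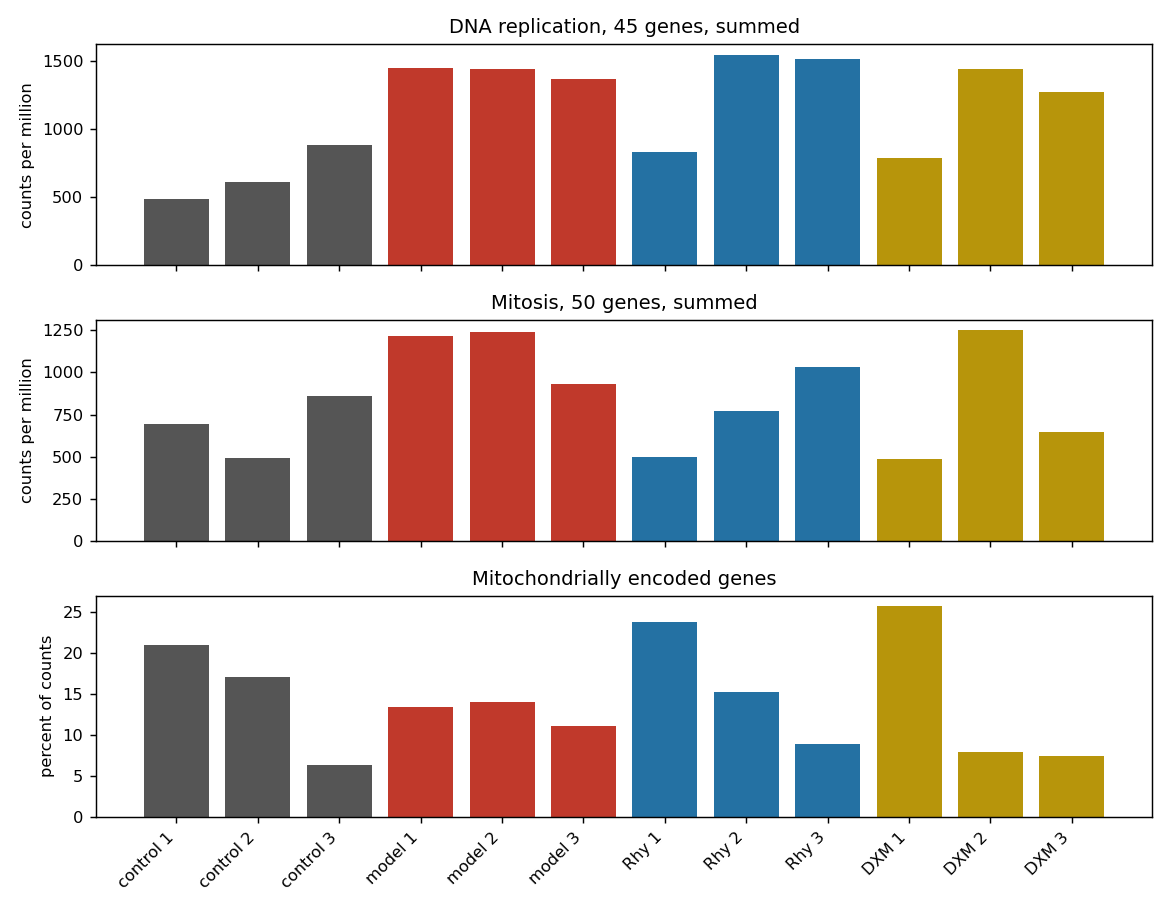
Summed expression of 45 DNA replication genes and 50 mitosis genes in CPM (upper and middle y axes, from 0) and the percent of counts on mitochondrially encoded genes (lower y axis), 1 bar per library. The replication sum is above every control in 7 of 9 DSS libraries, and the 2 exceptions, Rhy 1 and DXM 1, have the highest mitochondrial shares.

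The 2 lists differed in the share of promoters that held certain short sequences. E2F factors bind sites spelled TTTCCCGC, TTTGGCGC or TTTCGCGC and control entry into S phase, while the cell cycle genes homology region (CHR), spelled TTTGAA, is known from promoters active in mitosis. Both strands were searched in RefSeq promoters of GRCm38.p6, from 250 bases before to 50 bases after each start. At least 1 E2F spelling was present for 15 of 37 DNA replication genes with a promoter in the table (40.5%), 2 of 41 mitosis genes (4.88%) and 573 of 27025 genes in all (2.12%). TTTGAA was present for 6 of 37 replication genes (16.2%), 32 of 41 mitosis genes (78%) and 5466 of all genes (20.2%). The CCAAT box, spelled CCAAT, was also searched and was present for 24 of 37 replication genes (64.9%), 30 of 41 mitosis genes (73.2%) and 11096 of all genes (41.1%). The 5 windows below run from 120 bases before to 30 bases after the start, with the E2F spellings (replication genes) or TTTGAA (mitosis genes) in capitals. They are the 3 replication genes and the 2 mitosis genes with the smallest p whose window held its list's motif, chosen after their values were seen.
Mcm3: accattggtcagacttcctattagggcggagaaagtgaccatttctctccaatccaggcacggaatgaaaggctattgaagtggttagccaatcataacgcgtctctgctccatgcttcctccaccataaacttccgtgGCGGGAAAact
Mcm7: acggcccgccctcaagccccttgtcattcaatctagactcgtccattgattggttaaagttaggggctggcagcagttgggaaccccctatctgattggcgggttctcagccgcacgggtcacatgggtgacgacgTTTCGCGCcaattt
Mcm6: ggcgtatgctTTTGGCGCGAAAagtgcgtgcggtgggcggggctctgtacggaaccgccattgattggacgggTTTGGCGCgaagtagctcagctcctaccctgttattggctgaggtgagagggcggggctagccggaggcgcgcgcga
Cdca8: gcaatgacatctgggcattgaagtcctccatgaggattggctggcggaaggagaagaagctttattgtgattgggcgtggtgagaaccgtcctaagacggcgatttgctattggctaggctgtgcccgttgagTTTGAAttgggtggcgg
Cdk1: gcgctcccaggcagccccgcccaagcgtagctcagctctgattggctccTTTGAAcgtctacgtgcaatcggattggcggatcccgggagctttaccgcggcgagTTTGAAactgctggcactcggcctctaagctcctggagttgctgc
Their positions were chr1:20820283-20820432 (- strand) for Mcm3, chr5:138171854-138172003 (- strand) for Mcm7, chr1:128359676-128359825 (- strand) for Mcm6, chr4:124936888-124937037 (- strand) for Cdca8 and chr10:69352883-69353032 (- strand) for Cdk1. In the Mcm6 window 3 matches were found, of which a pair overlap in the same run of capitals.

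The 3 MCM genes encode subunits of the replicative helicase. Mcm3 was at 16.1, 17.7 and 27.6 CPM in control and at 20.2 to 70.9 CPM with DSS, a log2 fold change of 1.36 ± 0.36. Mcm7 was at 23.4, 30.4 and 33.5 CPM in control and 31.1 to 78.4 CPM with DSS (0.99 ± 0.27). Mcm6 was at 10.4, 17.7 and 49.3 CPM in control and 35.9 to 92.9 CPM with DSS (1.43 ± 0.45). For each of them the lowest DSS libraries were Rhy 1 and DXM 1. A motif match is a description of the sequence and not evidence of binding in these colons.

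Some genes of absorptive colonocytes were lower. Among 46 absorptive colonocyte genes, 36 had a log2 fold change below 0, with a median of -0.74, and 16 (34.8%) were lower at an unadjusted p under 0.05, where 9.19% of all genes were. One member was higher. The medians were -0.79 in model, -0.42 in Rhy and -0.99 in DXM. Cdhr2, a protocadherin that links the tips of microvilli (chromosome 13, 54701461 to 54736662), was at 927, 1233 and 856 CPM in control. It was at 439, 435 and 499 CPM in model, 740, 496 and 373 CPM in Rhy and 497, 232 and 210 CPM in DXM, all below the controls. Its log2 fold change was -1.24 ± 0.27. Myo1a, the brush border myosin, was at 884, 835 and 595 CPM in control and 299 to 562 CPM with DSS, a log2 fold change of -0.87 ± 0.21. Ceacam20, an adhesion molecule of the brush border, overlapped between groups because control 3 was at 58.1 CPM, against 31.9 to 71.0 CPM with DSS. Without control 2 the count of lower members was 10.

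Not every colonocyte gene was lower to a similar degree. Aqp8, a water channel of surface colonocytes, had a log2 fold change of -1.39 ± 0.53 over control levels of 2606, 1151 and 216 CPM, a range that covered the whole DSS range of 290 to 1141 CPM. Slc26a3, the chloride-bicarbonate exchanger, had -0.49 ± 0.34 and Car1, a carbonic anhydrase, -0.55 ± 0.83, neither at a p under 0.05. Car1 ranged from 1707 to 17740 CPM among the 3 controls alone. Muc2, the main mucin of goblet cells, ranged from 351 to 6710 CPM in control and 717 to 4528 CPM with DSS (-0.91 ± 0.68), and of 20 goblet cell genes tested 1 was higher and 1 lower.

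In the general epithelial list 9 of 18 members (50%) were lower, against 9.19% of all genes, with a median of -0.44. The count was 5 without control 1, without control 2 or without the DXM group. Hnf4a, a transcription factor of absorptive cells, was at 1006, 917 and 822 CPM in control and 463 to 859 CPM with DSS (-0.61 ± 0.17), and Cdhr5, the partner of Cdhr2, had a log2 fold change of -1.03 ± 0.27. The summed CPM of the 18 genes was 25880 to 41000 in control and 22450 to 32800 with DSS, so the sums overlapped. Of 25 smooth muscle genes, 24 had a log2 fold change above 0, with a median of 0.46, and 4 (16%) were higher at an unadjusted p under 0.05, against 7.86% of all genes. That count was 13 without control 1, 1 without control 2 or without control 3, 1 with the 9 DSS libraries as 1 group and 2 with model 1 and model 2 as 1 library. Their summed CPM was 6307 to 11040 in control and 7089 to 16040 with DSS, so the sums overlapped, with the highest in DXM 1 (14370) and DXM 3 (16040). The part of tissue sampling in these differences was not tested.

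Tight junction genes followed, with 13 of 29 (44.8%) lower at an unadjusted p under 0.05, against 9.19% of all genes, 1 higher, and a median of -0.43. The medians were -0.30 in model, -0.25 in Rhy and -0.61 in DXM. Without control 2 the count was 6. Cldn23, a claudin of the surface epithelium (chromosome 8, 35824712 to 35826559), was at 132, 95.3 and 88.3 CPM in control. It was at 54.6, 49.2 and 55.2 CPM in model, 86.5, 84.6 and 33.7 CPM in Rhy and 35.5, 34.5 and 29.8 CPM in DXM. Rhy 1 and Rhy 2 came close to the lowest control, and none overlapped. The log2 fold change was -1.09 ± 0.23, and the test among DSS groups gave an unadjusted p of 0.017 (adjusted p = 0.852, edgeR).

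Transcripts of the scaffold and strand proteins that are most often measured gave smaller differences. Tjp1, which encodes ZO-1, was at 114, 186 and 122 CPM in control. With DSS it was at 93.6, 93.6 and 84.8 CPM in model, 108, 113 and 111 CPM in Rhy and 129, 93.1 and 95.6 CPM in DXM. Only DXM 1 lay above the lowest control, and the log2 fold change was -0.46 ± 0.17 (unadjusted p = 0.0177, adjusted p = 0.204, edgeR). Ocln, encoding occludin, was at 67.2, 106 and 106 CPM in control and 42.6 to 92.0 CPM with DSS (-0.54 ± 0.18). Cldn4 was at 66.5, 183 and 114 CPM in control and 32.0 to 155 CPM with DSS, and its log2 fold change of -0.47 ± 0.40 had an adjusted p of 0.57 by edgeR. The groups overlapped for Cldn4. F11r, the junctional adhesion molecule A, was at 277, 266 and 234 CPM in control and 112 to 250 CPM with DSS (-0.57 ± 0.16).

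**Figure D3:**
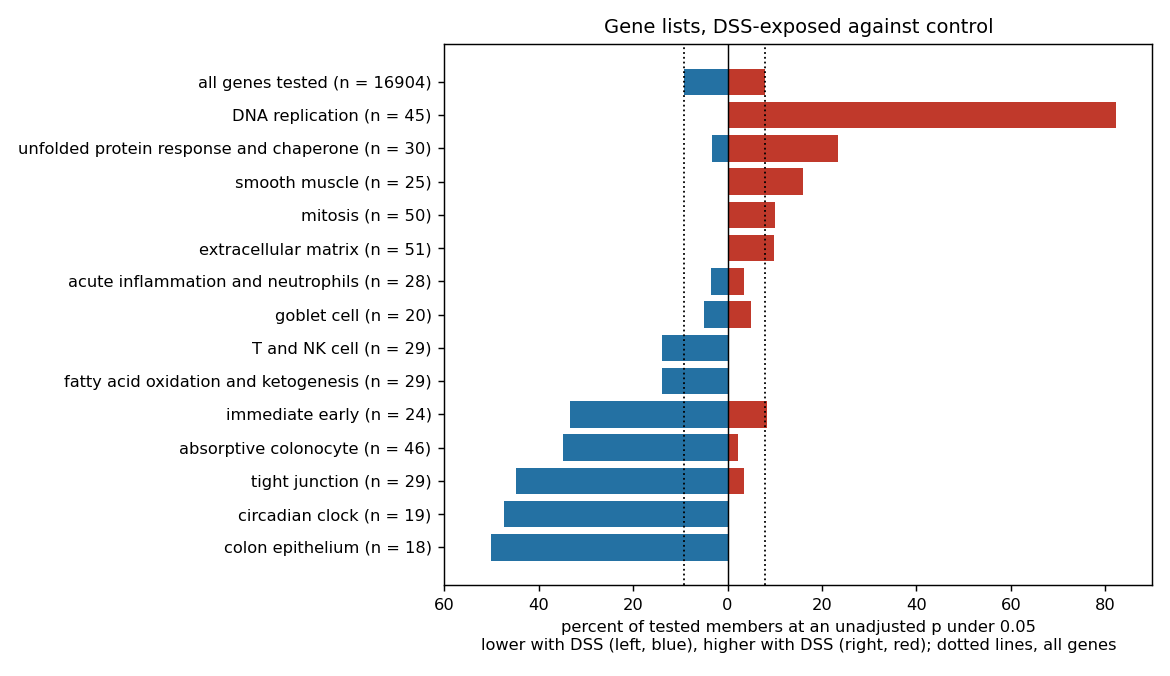
Percent of tested members of 14 gene lists and of all genes (y axis, number tested in brackets) at an unadjusted p under 0.05 in DSS-exposed against control (x axis); red bars to the right are higher with DSS, blue bars to the left lower, and dotted lines mark all genes tested. DNA replication reaches 82.2% higher, and colon epithelium, circadian clock and tight junction reach 50%, 47.4% and 44.8% lower.

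Markers of acute inflammation overlapped between the DSS-exposed colons and control. Of 43 genes of cytokines, chemokines and neutrophil products, 28 passed the filter on low counts, 1 was higher (Mmp3) and 1 lower (S100a8) at an unadjusted p under 0.05, against 7.86% higher and 9.19% lower of all genes. With model 1 and model 2 as 1 library 2 were higher. The median log2 fold change was -0.12, at -0.52 in model, -0.47 in Rhy and 0.56 in DXM. Among the 3 DSS groups, 6 of the 28 had an unadjusted p under 0.05 by edgeR, against 5.36% of all genes. Cxcl1, a chemokine, was at 0.22 to 0.487 CPM in control and at 1.30, 3.52 and 5.98 CPM in DXM. Its log2 fold change was 3.22 in DXM, 0.08 in model and 0.35 in Rhy. The test among DSS groups gave it an unadjusted p of 0.00106 (adjusted p = 0.852, edgeR). S100a8, which encodes a neutrophil protein, was at 3.44, 1.53 and 0.11 CPM in control and at 0 to 4.66 CPM with DSS, and DXM 3 alone held more than any control. Il1b, the interleukin-1 beta gene, was at 2.32, 2.57 and 3.79 CPM in control and 0.298 to 8.46 CPM with DSS, a log2 fold change of -0.15 ± 0.55. Lcn2, a neutrophil and epithelial antibacterial protein, was at no more than 1.81 CPM in any library. Mmp3, a matrix metalloproteinase, was at 0.824, 1.11 and 0.275 CPM in control and 0.171 to 4.24 CPM with DSS (1.56 ± 0.61). Against control S100a8 had a log2 fold change of -2.11 ± 0.94 (unadjusted p = 0.0442, adjusted p = 0.28, edgeR), and the direction of Il1b turned positive in 4 of the alternative fits.

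Of 19 genes of antimicrobial epithelial defence, 9 had a log2 fold change above 0 and 10 below, with a median of -0.03. At an unadjusted p under 0.05, 3 (15.8%) were higher and none lower, against 7.86% and 9.19% of all genes. The antimicrobial lectins Reg3b and Reg3g, which the epithelium makes on contact with bacteria, differed widely between libraries. Reg3b was at 126, 14.1 and 77.2 CPM in control. It was at 4737, 4829 and 1116 CPM in model, 31.6, 70.7 and 1093 CPM in Rhy and 103, 1276 and 1.98 CPM in DXM. All 3 model libraries and 1 each of Rhy and DXM exceeded every control, while DXM 3 was below them. The log2 fold change was 3.58 ± 1.65 (adjusted p = 0.295, edgeR). Reg3g had a log2 fold change of 3.30 ± 1.38 over all DSS libraries, with 5.61 in model, 2.55 in Rhy and 1.75 in DXM. Nox1, the epithelial NADPH oxidase, was at 1.27, 3.55 and 1.43 CPM in control and 1.63 to 15.2 CPM with DSS (1.98 ± 0.70), with Rhy 1 and DXM 1 the lowest.

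**Figure D4:**
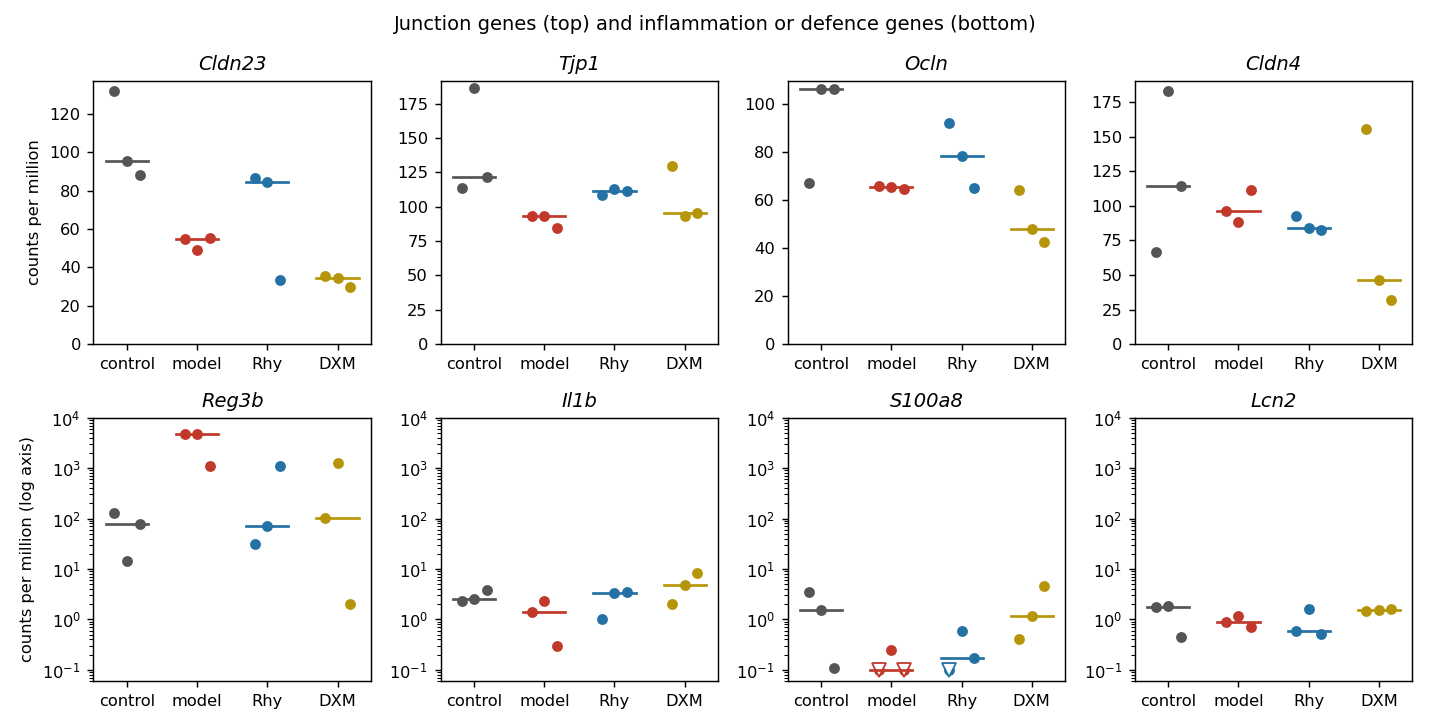
Expression in CPM of 4 junction genes (top, y axes from 0) and of Reg3b, Il1b, S100a8 and Lcn2 (bottom, log axes) by group. Points are libraries, lines are group medians and open triangles in the bottom row mark library values under 0.1. Medians under 0.1 are drawn at 0.1 without a mark. The Cldn23 points with DSS all lie below control, Reg3b spans 1.98 to 4829 with DSS, and Il1b, S100a8 and Lcn2 stay under 10 in every library.

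Some immediate early genes were lower in the DSS-exposed colons. Of 24 immediate early genes, which are switched on within minutes of a stimulus, 8 (33.3%) were lower and 2 (8.33%) higher, where 9.19% and 7.86% of all genes were, and the median was -0.42, at -0.76 in model, -0.35 in Rhy and -0.07 in DXM. Jun, a subunit of AP-1 (chromosome 4, 95049034 to 95052222), was at 306, 341 and 279 CPM in control. It was at 123, 120 and 202 CPM in model, 225, 171 and 122 CPM in Rhy and 136, 102 and 138 CPM in DXM. No DSS library reached a control, and the log2 fold change was -1.07 ± 0.21 (adjusted p = 0.137, edgeR). Klf6, a zinc-finger transcription factor, was lower in all 9 libraries, from 132 to 257 CPM against 263, 348 and 292 CPM. Nr4a1, a nuclear receptor that is also induced early, was at 25.2, 18.6 and 39.9 CPM in control and 11.2 to 63.5 CPM in 8 DSS libraries, with 221 CPM in DXM 3, and its log2 fold change of 0.36 ± 0.65 was negative without that library (-0.25).

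Of 19 circadian clock genes, 9 (47.4%) were lower and none higher at an unadjusted p under 0.05, where 9.19% of all genes were lower, and the median was -0.36. Cry2, a repressor of the clock, was at 45.9, 70.4 and 46.3 CPM in control and 23.5 to 39.5 CPM with DSS (-0.80 ± 0.18). Per1, also a repressor and a glucocorticoid target, was at 95.1, 79.6 and 77.5 CPM in control and 32.6 to 71.4 CPM with DSS (-0.75 ± 0.17). Neither gene overlapped between the groups, and nor did Tef, a clock-controlled transcription factor (-0.60 ± 0.18). The hour at which each mouse was killed is not given in the sources used here, and its part in these values was not tested. Without control 2 the count of lower clock genes was 4.

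The other lists gave smaller shares. Of 30 genes of the unfolded protein response and chaperones, 7 (23.3%) were higher, against 7.86% of all genes, among them Hspe1, the mitochondrial chaperone Hsp10 (1.01 ± 0.22), and Hsph1, a cytosolic heat shock protein (1.31 ± 0.46), while Edem1, which sends misfolded glycoproteins for degradation, was lower (-0.61 ± 0.15). The count was 1 without control 2 and 14 without control 3. Hspe1 has near-identical copies, so its value is less certain. Of 29 T and NK cell genes, 4 (13.8%) were lower and none higher, with a median of -0.33, near the 9.19% of all genes that were lower. Of 29 genes of fatty acid oxidation and ketogenesis, the same share was lower and none higher, with a median of -0.25. Of 10 tested targets of the aryl hydrocarbon receptor (AhR), 1 was lower. Cyp1a1, the AhR target most often measured, was at 0.0749, 254 and 10.4 CPM in the 3 controls, and its log2 fold change (-1.85 ± 1.01) reversed to 2.19 without control 2. Ahr itself had a log2 fold change of 0.08 ± 0.18.

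Differences among the 3 DSS groups were tested apart from the controls. The test among model, Rhy and DXM gave no gene at an adjusted p under 0.05 by edgeR (smallest 0.419) and 906 genes (5.36%) at an unadjusted p under 0.05. DESeq2 called 23. With model 1 and model 2 as 1 library the unadjusted count was 473, and without control 1 it was 1339. Of 51 extracellular matrix genes, 28 had an unadjusted p under 0.05 among the DSS groups, with medians against control of -0.31 in model, 0.11 in Rhy and 0.68 in DXM. Ogn, a small matrix proteoglycan, was at 53.8, 49.6 and 46.6 CPM in control, 41.8, 39.3 and 50.9 CPM in model, 60.3, 82.2 and 85.8 CPM in Rhy and 92.7, 73.8 and 140 CPM in DXM. Scn7a, a sodium channel gene, was at 13.7 to 14.8 CPM in control and at 25.7, 26.9 and 27.0 CPM in DXM, above all other libraries. Scnn1g, a subunit of the epithelial sodium channel and a glucocorticoid target, was at no more than 0.749 CPM in control and at 40.8, 4.19 and 10.7 CPM in DXM, a log2 fold change of 5.50 there against 1.52 in model and 2.66 in Rhy. Most glucocorticoid targets went the other way, with 17 of 19 below 0 in DSS-exposed against control. At an unadjusted p under 0.05, 1 (5.26%) was higher and 3 (15.8%) lower, against 7.86% and 9.19% of all genes. Their medians were -0.47 in model, -0.36 in Rhy and -0.49 in DXM.

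Gene length differed between the higher and the lower genes. Among protein-coding genes at an unadjusted p under 0.05, the median length was 3346 bases for the 1227 higher genes and 5234 bases for the 1437 lower genes, against 4321 bases for all 14587 tested. The lower genes were also more highly expressed, with a median of 49.4 CPM against 25.1 CPM. With genes cut into 5 equal sets by length, the shortest set lay above the longest in 1 control library (control 1, 0.198 against -0.137 as the median log2 deviation from the control mean) and below it in control 2 (0.006 against 0.034) and control 3 (-0.155 against 0.111). It lay above the longest in 8 of 9 DSS libraries, by most in Rhy 2 (0.268 against -0.138), and below it in model 2 (0.045 against 0.076). The part of length in the list counts was not tested.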

How the data were processed

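The 12 RNA-Seq libraries of mouse colon were analysed. The authors deposited raw read counts per gene, as whole numbers without normalization, and FPKM values made from the same counts. The submitters' processing notes name HISAT2 2.0.5, featureCounts 1.5.0-p3, DESeq2 1.16.1 and mm10, and the counting strand is not given in the sources used here. Counts were filtered with filterByExpr (minimum count 10), scaled by TMM and fitted in edgeR 4.0.16 (R 4.3.3) as 4 group means. The contrast was the mean of the 3 DSS groups minus control, tested two-sided with glmQLFTest. CPM used the scaled library sizes. The same fit gave each group against control and the test among DSS groups. Lists were described by counts and medians, with no set test. Nothing states that mice came from separate cages or litters. Genes named were drawn mainly from the 12 higher and 12 lower genes with the smallest p and 1 direction in all 3 groups. They were also drawn from the 3 smallest p of each list, fixed genes of the study, and the 5 smallest p among DSS groups. Other genes were named as library markers, with a promoter window, as calls of an alternative fit or after their values were seen. The members and lists were chosen with earlier results of these data known. Alternatives used DESeq2 1.42.0, limma 3.58.1 on log2(FPKM + 1) and log2(FPKM + 0.1), other scalings and filters, and left-out libraries or groups. Replicate numbers did not pair the samples. The edgeR test was tested on simulated data. Promoters are RefSeq, GRCm38.p6. Some items are not reported here.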

Additional observations from a re-analysis of the deposited data

Results flagged for a closer look

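In 10 of the 89 genes examined, 1 of the 9 DSS libraries stood far from the other 8, by Dixon's ratio of the gap to the nearest library over the whole range. The cutoff flags about 1 gene in 20 for values drawn from a single normal distribution, which CPM from 3 treatments need not follow. No excess over chance can be read from the count. Model 1 and model 2 were nearly the same, so neither could easily stand apart from the other. Of the 10 flagged, 7 were DXM libraries. DXM 1 was the highest for Slc17a9 (72.5 CPM, next 53.8) and for Scnn1g (40.8 CPM, next 10.7). DXM 2 was the highest for Cyp1a1 (142 CPM, next 54.9) and for Mmp13 (4.19 CPM, next 1.92). DXM 3 was the highest for Nr4a1 (221 CPM, next 63.5), S100a8 (4.66 CPM) and S100a9 (3.8 CPM, next 0.675). Rhy 2 was the highest for Aqp8 (1141 CPM, next 679) and for Spa17 (3.98 CPM, next 2.08), and model 3 for Muc2 (4528 CPM, next 2537). Slc17a9 still lay below the lowest control in all 9 DSS libraries. For Scnn1g the 3 DXM libraries were the highest of the 3 groups apart from Rhy 3 (5.6 CPM), which exceeded DXM 2 (4.19 CPM).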

How the results depend on the processing

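The number of genes at an adjusted p under 0.05 for DSS-exposed against control depended on the method. It was 0 with edgeR as described (2882 at an unadjusted p under 0.05), 44 with every gene that had any count (3 higher: Rps26-ps1, Nme1 and Ranbp1), 854 with DESeq2, 350 with only the libraries that held Hoxb13 at 5 CPM or more, 862 with a term for the mitochondrial share of counts, and 1 without the DXM group (Rps26-ps1). The libraries with Hoxb13 and the mitochondrial term were chosen after seeing the data, and DESeq2 and the libraries with Hoxb13 shared 230 calls. Leaving out 1 library gave 0 to 27 such genes (27 without DXM 1, 5 of them higher: Ranbp1, Mrps28, Npm3, Nme1 and Snrpd3; 1 without DXM 3, Rps26-ps1) and 1775 to 3704 at an unadjusted p. RLE scaling made 37.1% of the unadjusted genes higher and upper-quartile scaling 56.2%, against 46.1% with TMM. With the replicate number as a block there were 2970 genes at an unadjusted p under 0.05 and 0 adjusted. Same-numbered samples of different groups correlated at -0.31 to 0.363 and in 6 of 18 pairs over 0.1, so the numbers do not pair samples. Among the 3 DSS groups, the adjusted count was 23 with DESeq2, 1 (Ggta1) with the Hoxb13 libraries, and 0 to 1 leaving out 1 library (Ggta1, without model 3). The unadjusted count among DSS groups was 1424 with any count, 473 with model 1 and model 2 as 1 library, 1364 with the mitochondrial term and 438 (without DXM 3) to 1339 leaving out 1 library. The same-direction count was 9911 to 11676 leaving out 1 library. For DNA replication the leave-one-out range was 29 to 39, for immediate early genes 6 to 11, for absorptive colonocyte genes 10 to 23 and 25 with any count, for tight junction 6 to 15 and 7 without the DXM group, for colon epithelium 5 to 10 and 5 without the DXM group, and for circadian clock 4 to 9 and 5 without the model group. Mitosis gave 0 to 18, 9 with upper-quartile scaling, any count or no Rhy group, 0 without the model group, 11 without the DXM group, 25 with the Hoxb13 libraries and 15 with the mitochondrial term. Acute inflammation gave 0 to 3 leaving out 1 library, 2 with any count, model 1 and 2 as 1 library, no model group or the Hoxb13 libraries, 3 without the Rhy group and 0 without the DXM group. Smooth muscle gave 1 to 13, 1 with 9 DSS libraries as 1 group, 2 with model 1 and 2 as 1 library, no DXM group or the Hoxb13 libraries, and 10 with the mitochondrial term. Unfolded protein response gave 1 to 14, 4 without the model group, 11 with the Hoxb13 libraries and 12 with the mitochondrial term. Over all genes, 1896 of 17253 were higher at an unadjusted p under 0.05 with the Hoxb13 libraries, and 1772 of 16904 with the mitochondrial term. Of 2487 log2 fold changes of named genes over 28 alternatives, 2313 kept direction and side of the threshold, 143 newly passed it and 31 changed sign, in 11 genes with an unadjusted p over 0.05. None of the named genes had passed it with edgeR as described. With the 9 DSS libraries as 1 group Il1b was 0.06 and S100a9 0.53. The Hoxb13 term turned Col1a1 to -0.09. Without the model group Il1b was 0.32 and S100a9 0.37, without the Rhy group S100a9 was 0.28 and Mki67 0.09, and without the DXM group Nr4a1 was -0.32 and Col1a1 -0.21. With the Hoxb13 libraries Il1b and Muc2 were both 0.35. With limma on FPKM, Cyp1a1 was 0.21 (pseudocount 1) or 1.11 (pseudocount 0.1) and S100a9 0. Leaving out 1 library at a time, log2 fold changes ran as follows: Nr4a1 from -0.25 to 0.69, Ahr from -0.02 to 0.14, Cyp1a1 from -2.44 to 2.19, Il1b from -0.36 to 0.08, Tnf from -1.0 to 0.52, S100a9 from -0.82 to 1.63, Lcn2 from -0.73 to 0.02, Muc2 from -1.43 to 0.65, Car1 from -1.33 to 0.49, Mki67 from -0.32 to 0.42 and Col1a1 from -0.19 to 0.32. The causes were not tested. With 3 controls and totals of 14346478 to 17749716, genes at a few CPM are poorly resolved.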

Other observations

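Lists of growth and structure genes are described here. These lists were chosen after their values had been seen, so the counts are descriptions. Over all genes tested, 7.86% were higher and 9.19% lower at an unadjusted p under 0.05, and 1.95% had every DSS library above every control. Of 43 genes of nucleolar ribosome assembly, which process ribosomal RNA, 29 were higher at an unadjusted p under 0.05 and none lower. Their median log2 fold change was 0.63, and for 9 of them every DSS library was above every control library. Their summed CPM was 1370 to 1640 in control and 1650 to 2790 with DSS. Of 77 mitochondrial ribosomal protein genes, 32 were higher and none lower, with a median of 0.34, and 14 had no overlap, while the sums overlapped (2910 to 3240 in control, 3130 to 4290 with DSS). Of 20 cytosolic aminoacyl-tRNA synthetases, which load amino acids onto tRNA, 8 were higher (median 0.40). Of 8 subunits of the chaperonin CCT, which folds actin and tubulin, 5 were higher (median 0.44). Of 38 proteasome genes, 16 were higher (median 0.31). The summed CPM of these 3 lists also overlapped between the groups. Of 32 microvillus and actin cytoskeleton genes, 21 were lower and none higher, with a median of -0.65. Their summed CPM was 10600 to 15500 in control and 5580 to 10700 with DSS. Their median length was 6543 bases, against 2255 bases for the mitochondrial ribosomal genes, and the part of gene length was not tested.

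Rps26-ps1, a transcribed pseudogene of a ribosomal protein chosen after its values were seen, was at 3.97, 7.30 and 3.18 CPM in control and at 92.9 to 297 CPM in 8 DSS libraries, but at 4.61 CPM in DXM 3. The log2 fold change was 4.59 ± 0.84 (adjusted p = 0.137, edgeR). Its reads may be shared with near-identical copies of the parent gene.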
